A study of Mus musculus with 9 samples.

Results

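Interferon-stimulated genes are genes that cells switch on when an interferon binds its receptor. The 39 genes described here were chosen by symbol from a fixed list of such genes, and each symbol matched 1 of the 57010 Ensembl gene identifiers in both of the authors' deposited comparison tables. RNA sequencing covered 3 groups of 3 mouse libraries, all labelled as organoids, which are self-organising cultures. By their labels the groups were small cell lung cancer organoids treated with an agent that the labels call GSK (GSK), small cell lung cancer organoids without it (SCLC), and normal lung organoids (Normal). The labels give no strain, genotype, driver alleles, age, dose or treatment time, do not say what GSK is, and do not say whether the 3 libraries of a group came from separate animals or cultures. The deposited values were comparisons of 3 libraries against 3 and held no value of a single library, so the authors' standard errors (SE) were the sole view of the spread between libraries, which may be technical.

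Type I interferons (the alpha and beta interferons) signal through a receptor on nearly every cell to a complex that holds STAT2 and IRF9 and binds a DNA element called the ISRE. Interferon gamma, made mainly by T cells and natural killer (NK) cells, signals through a separate receptor to an element called GAS. Ifit, Oas and Mx genes are classic targets of the type I pathway, and the Gbp genes, Irf1 and Iigp1 lean towards interferon gamma, although most members respond to both. In the lung these genes act in the defence of epithelium and macrophages against viruses and intracellular bacteria, and in tumours they accompany antigen presentation.

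The elements that define both pathways were looked for in the promoters of the members. RefSeq promoters on build GRCm38.p6, of 250 bases before and 50 bases after the annotated start site, were found for 31 of the 39 members. No entry was matched for Usp18, Mx1, Mx2, Oas2, Ifi27, Iigp1, Parp9 and Parp14. The ISRE was searched as TTTC, any 2 bases and TTTC again, or GAAA, any 2 bases and GAAA where it lies on the other strand, and the GAS as TTCNNNGAA, which reads the same on both strands. Matches of both kinds were counted separately, also where they overlap. The ISRE letters were present in 17 of 31 members (54.8%) and in 1079 of 27025 genes with a promoter in the table (3.99%). The GAS letters were present in 11 of 31 members (35.5%) and in 2582 of 27025 genes (9.55%). Of the Ifit, Oas and Mx genes with a promoter, 5 of 8 held the ISRE letters and 2 of 8 the GAS letters. Of the Gbp genes and Irf1, 4 of 5 held the ISRE letters and 3 of 5 the GAS letters. A match describes letters and does not show that a factor binds there.

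Windows of 80 bases are printed for 12 members that span these patterns, 5′ to 3′ on the strand of the gene, with matched letters in capitals. Ifit1, Ifit3 and Ifit3b show paired ISRE letters, Oas1a and Isg15 show overlapping ones, the Gbp genes and Igtp show ISRE letters alone or beside GAS letters, and Irf1 and Irf8 show GAS letters alone. Bst2 is printed because it carries both kinds of letters and had an adjusted p over 0.05 in both comparisons.
Ifit1 (chr19:34640742-34640821, plus strand): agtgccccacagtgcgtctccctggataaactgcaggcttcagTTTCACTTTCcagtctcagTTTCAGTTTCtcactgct
Ifit3 (chr19:34583345-34583424, plus strand): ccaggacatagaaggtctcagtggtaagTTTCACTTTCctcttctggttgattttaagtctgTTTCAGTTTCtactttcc
Ifit3b (chr19:34607741-34607820, plus strand): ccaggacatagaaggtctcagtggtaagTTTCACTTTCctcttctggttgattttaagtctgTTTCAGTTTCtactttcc
Oas1a (chr5:120907526-120907605, minus strand): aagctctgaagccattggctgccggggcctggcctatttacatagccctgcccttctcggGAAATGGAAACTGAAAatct
Isg15 (chr4:156200867-156200946, minus strand): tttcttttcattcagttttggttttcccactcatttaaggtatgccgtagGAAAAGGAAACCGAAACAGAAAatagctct
Gbp2 (chr3:142620542-142620621, plus strand): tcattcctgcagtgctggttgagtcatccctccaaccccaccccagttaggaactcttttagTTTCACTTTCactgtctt
Gbp3 (chr3:142559943-142560022, plus strand): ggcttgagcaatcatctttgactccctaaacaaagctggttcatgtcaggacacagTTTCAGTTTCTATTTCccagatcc
Gbp7 (chr3:142530221-142530300, plus strand): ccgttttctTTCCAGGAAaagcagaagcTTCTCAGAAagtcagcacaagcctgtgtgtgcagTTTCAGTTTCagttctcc
Igtp (chr11:58199460-58199539, plus strand): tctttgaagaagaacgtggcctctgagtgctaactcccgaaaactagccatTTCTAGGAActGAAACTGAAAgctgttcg
Irf1 (chr11:53769861-53769940, plus strand): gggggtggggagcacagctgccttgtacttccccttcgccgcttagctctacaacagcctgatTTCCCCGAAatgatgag
Irf8 (chr8:120736142-120736221, plus strand): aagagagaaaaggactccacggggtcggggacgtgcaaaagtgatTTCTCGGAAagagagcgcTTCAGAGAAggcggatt
Bst2 (chr8:71537579-71537658, minus strand): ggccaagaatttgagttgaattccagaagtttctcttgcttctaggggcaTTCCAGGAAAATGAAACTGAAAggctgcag

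**Figure D1:**
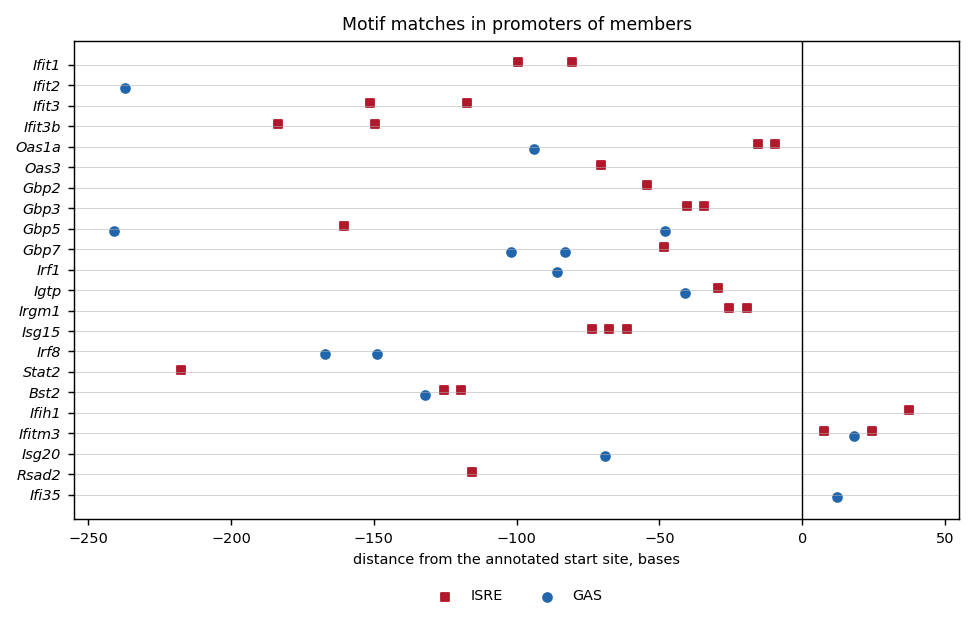
Positions of ISRE letters (red squares) and GAS letters (blue circles) in the promoters of members with a match, as the distance in bases of the match's centre from the annotated start site (vertical line). Members are grouped by family from top to bottom, and most matches lie upstream of the start site.

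The windows of Ifit3 and Ifit3b were identical in all 80 bases, and their transcripts were also alike: 61.8% of the 31-base words of the Ifit3 transcript occur in Ifit3b. Oas1a shared 68.7% of its words with Oas1g. Reads of these pairs may have been split between the copies by the authors' counting, so the values of Ifit3, Ifit3b and Oas1a are uncertain to that degree. Of all members, 4 had more than 20% of their words in transcripts of other genes, the fourth being Ifitm3 with 20.5%.

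Transcripts of other cell types moved with the groups, and they stand beside every result below. In the GSK libraries all 6 T and NK cell markers rose against SCLC per the authors' deposited table, and their summed group mean was 2638 normalized counts in GSK against 5.11 in SCLC. Nkg7, of cytotoxic granules, had a mean of 604 in GSK, and Cd3d, of the T cell receptor complex, of 347 in GSK. Each was listed under a mean of 1 in SCLC. All 9 macrophage markers other than Lyz2 rose as well, with sums of 38366 in GSK and 161 in SCLC. Ptprc, counted in that list although it is the pan-leukocyte gene for CD45, was at least 12562-fold higher in GSK. The sums are therefore not levels of macrophages alone. Folds given as at least, here and below, set a group's mean against a floor of 1 for the other group. They leave out the error of that mean. All 6 endothelial, all 6 fibroblast, all 4 B cell and all 4 erythroid markers rose in GSK per the authors' deposited table. Their sums were 16429, 14652, 1797 and 6355 in GSK and 56.8, 28.5, 23.1 and 20.6 in SCLC. Of the 4 lung epithelium markers, Scgb1a1 (adjusted p = 2.43e-48) and Sftpc (adjusted p = 2.13e-18) rose in GSK per the authors' deposited table. Scgb1a1 had means of 5428 in GSK and 2.37 in SCLC, and Sftpc of 1858 in GSK and 232 in SCLC. Epcam and Cdh1 did not pass (adjusted p = 0.369 and 0.382, per the authors' deposited table). Over the same libraries the sum of the neuroendocrine tumour markers Insm1, Chga and Syp was 43662 in GSK and 95552 in SCLC. Insm1 (means of 17353 in GSK and 66876 in SCLC) and Syp (2170 in GSK and 5454 in SCLC) fell per the authors' deposited table. Chga did not pass (0.06 ± 0.33, adjusted p = 0.919, per the authors' deposited table). Its means were 24139 in GSK and 23222 in SCLC. The labels of the GSK libraries name no source for leukocyte, vessel and red cell transcripts, and where these came from was not tested. Each difference of GSK from SCLC below is therefore one between libraries that also differ in these transcripts; their part in the interferon results was not tested.

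SCLC differed from Normal in the opposite way in macrophage and fibroblast markers, and less uniformly in other lists. Of the 9 macrophage markers other than Lyz2, 8 fell in SCLC per the authors' deposited table, with sums of 149 in SCLC and 6716 in Normal. All 6 fibroblast markers fell, with sums of 26.4 in SCLC and 9587 in Normal. Of the endothelial markers 4 of 6 fell, of the erythroid markers 1 of 4, and of the B cell markers 1 of 2 with an adjusted p. The rest of these did not pass. Sums of these lists, in that order, were 53.2, 19.1 and 21.4 in SCLC and 131, 34.9 and 239 in Normal. The T and NK cell markers were at or near 0 in both groups, with sums of 3.60 in SCLC and 0.826 in Normal, and only Cd4 had an adjusted p. The lung epithelium markers Sftpc, Scgb1a1, Epcam and Cdh1 all fell in SCLC. Xist, transcribed from the inactive X chromosome, had a mean of 1.76 in SCLC and 31710 in Normal. The Y chromosome genes Ddx3y and Kdm5d had means of 1009 and 532 in SCLC, and of 0.411 each in Normal. These groups thus also differed in sex-linked transcripts, which cannot be told apart from the other differences between them. All 3 genes rose in GSK against SCLC per the authors' deposited table. Their means, in the order named, were 15.7, 3868 and 1430 in GSK and 1.87, 1090 and 573 in SCLC. In bulk RNA fewer cells of a type and less RNA per cell cannot be told apart. The erythroid, B cell and sex-linked lists, and the macrophage list without Lyz2, were added with their values in view.

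**Figure D2:**
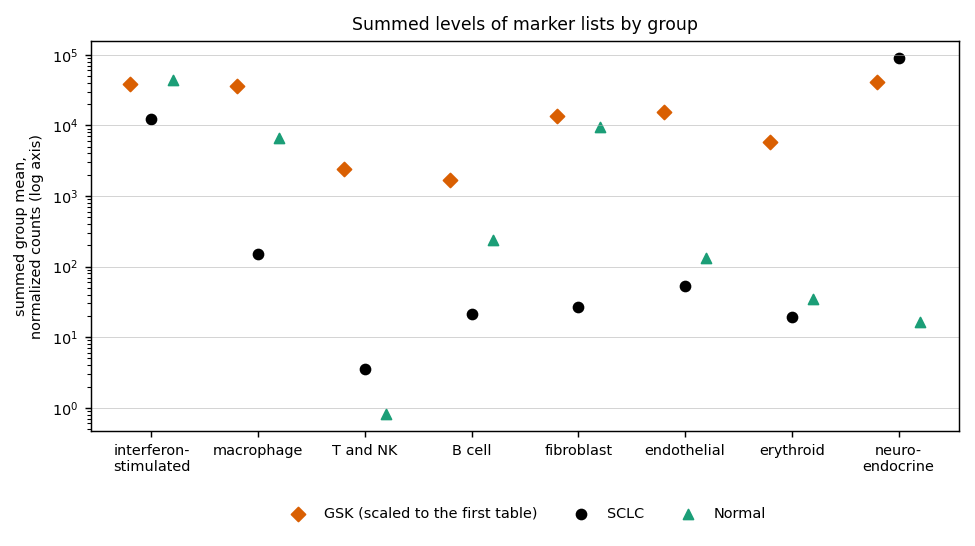
Summed group means of the 39 interferon-stimulated genes and of marker lists in normalized counts on a log axis, for GSK (orange diamonds, put on the scale of the first table), SCLC (black circles) and Normal (green triangles). T and NK cell markers reach 2447 in GSK on that scale, against 3.60 in SCLC and 0.826 in Normal, and each list other than the neuroendocrine one is higher in GSK than in SCLC.

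Interferon-stimulated genes were lower in SCLC than in Normal. Of the 35 members with an adjusted p for SCLC versus Normal per the authors' deposited table, 29 fell and 0 rose at an adjusted p under 0.05. Over all 24719 genes tested, 25.1% were lower and 25.3% higher. Scaled to the median gene, 32 members and 28.1% of all genes were lower, and under a null of an absolute log2 fold change up to 1, 20 members and 13.7%. The median log2 fold change of the 35 members was -3.11, against 0.10 over all genes tested. The group means, which are implied by each mean and fold change per the authors' deposited table, summed over the 39 members to 12131 normalized counts in SCLC and 44390 in Normal. These sums include the 4 members without an adjusted p, whose Normal means may rest on a single library. In SCLC 14 members had a mean under 10, and 5 of them a mean under 1, the floor of 3 counts over the 3 libraries of a group.

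All 9 Ifit, Oas and Mx genes with an adjusted p fell in SCLC, with a median log2 fold change of -6.30. It was -6.02 with SCLC means under the floor set to 1. Ifit3, of a family that restrains the translation of viral RNA, had a mean of 5.74 in SCLC and 2507 in Normal. Its log2 fold change per the authors' deposited table was -8.77 ± 0.65 (adjusted p = 5.75e-40). Ifit3b, the neighbouring copy, had a mean of 0.896 in SCLC and 637 in Normal (-9.47 ± 0.90, adjusted p = 1.82e-24, per the authors' deposited table). Ifit1, which recognises viral RNA caps, had a mean of 1.11 in SCLC and 1594 in Normal (-10.49 ± 1.61). The authors' deposited table gives it no p-value, and its Normal mean may rest on a single library. Ifit2 was the exception within the family: it kept a mean of 341 in SCLC against 893 in Normal (-1.39 ± 0.56, adjusted p = 0.0291, per the authors' deposited table).

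Among the Oas genes, whose products make the signal that activates RNase L, Oas1a fell by 5.99 ± 0.68 on the log2 scale (adjusted p = 2.29e-17) per the authors' deposited table. Oasl2, a relative with ubiquitin-like domains, had a mean of 6.23 in SCLC and 573 in Normal. Oas2 had means of 0.825 in SCLC and 65.0 in Normal (-6.30 ± 1.18, adjusted p = 4.05e-07, per the authors' deposited table). Oas3 had means of 16.8 in SCLC and 69.4 in Normal (-2.05 ± 0.67, adjusted p = 0.00592), and Oasl1 of 17.6 in SCLC and 85.1 in Normal (-2.27 ± 0.96, adjusted p = 0.0366), per the authors' deposited table. Both were already among the lower members of the family in Normal. Mx1, a dynamin-like GTPase that blocks influenza viruses, had a mean of 4.97 in SCLC and 565 in Normal (-6.83 ± 0.80, adjusted p = 1.45e-16, per the authors' deposited table).

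All 5 of the Gbp and Irf1 genes, each with an adjusted p, fell in SCLC as well, with a median log2 fold change of -8.18 (-7.54 with genes under the floor at their bound). The Gbp genes encode guanylate-binding proteins, which coat and break the vacuoles of intracellular pathogens. Gbp5 was at least 267-fold and Gbp3 at least 186-fold lower in SCLC, where their means were 0.0813 and 0.158. These bounds leave out the error of the Normal means. Gbp2 had a mean of 1.65 in SCLC and 480 in Normal (-8.18 ± 1.63, adjusted p = 2.23e-06), and Gbp7 of 10.8 in SCLC and 277 in Normal (-4.69 ± 0.79, adjusted p = 2.03e-08), per the authors' deposited table. Irf1, the transcription factor that drives much of the gamma response, kept a mean of 618 in SCLC against 2056 in Normal (-1.73 ± 0.27, adjusted p = 4.94e-10, per the authors' deposited table). Iigp1, a GTPase of the immunity-related family, had no p-value (-5.20 ± 2.15, per the authors' deposited table). The difference between the Ifit, Oas and Mx genes and the Gbp, Irf1 and Iigp1 genes was not tested.

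The remaining groups were more mixed. Isg15, the ubiquitin-like protein attached to other proteins during the response, had a mean of 17.6 in SCLC and 618 in Normal (-5.13 ± 0.69, adjusted p = 1.13e-12, per the authors' deposited table). Its removing enzyme Usp18 (-0.40 ± 0.59, adjusted p = 0.6) and its ligase Trim25 (-0.53 ± 0.25, adjusted p = 0.0646) did not pass per the authors' deposited table. Of the transcription factors, Irf7, which amplifies type I interferon, fell by 4.44 ± 0.69 on the log2 scale (adjusted p = 1.05e-09) per the authors' deposited table. Stat2 (-2.09 ± 0.59, adjusted p = 0.00111) and Irf9 (-1.26 ± 0.43, adjusted p = 0.0074), the partners that bind the ISRE, fell less per the authors' deposited table and kept means of 717 and 549 in SCLC. Irf8, a factor of myeloid and B cells, had a mean of 251 in SCLC and 171 in Normal (0.55 ± 0.61, adjusted p = 0.469, per the authors' deposited table).

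Ifitm1, which blocks viral entry at membranes, had a mean of 2.32 in SCLC and 772 in Normal (-8.38 ± 1.65, adjusted p = 1.52e-06, per the authors' deposited table). Ifitm3 missed the threshold (-1.35 ± 0.62, adjusted p = 0.0585), as did Bst2, the tether of budding viruses (-0.77 ± 0.42, adjusted p = 0.117), per the authors' deposited table. Scaled to the median gene, Trim25 (adjusted p = 0.0102), Ifitm3 (adjusted p = 0.0294) and Bst2 (adjusted p = 0.0472) were lower in SCLC, and Ifitm3 (adjusted p = 0.0448) and Trim25 (adjusted p = 0.0497) also among genes with a mean of at least 50. Ifih1, the RNA sensor MDA5, fell by 3.11 ± 0.30 on the log2 scale (adjusted p = 4.37e-24), and Isg20, an RNA exonuclease, by 0.71 ± 0.24 (adjusted p = 0.00666), per the authors' deposited table. Rsad2, the antiviral enzyme viperin, had no p-value (-4.46 ± 1.27, per the authors' deposited table). Parp14, a mono-ADP-ribosyltransferase, had a mean of 12.4 in SCLC and 2172 in Normal (-7.46 ± 0.51, adjusted p = 2.05e-47), with the lowest adjusted p of the members per the authors' deposited table. Its neighbours in function, Parp9 (-3.07 ± 0.54) and the ubiquitin ligase gene Dtx3l (-2.21 ± 0.56), fell per the authors' deposited table. Xaf1, which binds an inhibitor of apoptosis, fell by 7.21 ± 0.71 on the log2 scale per the authors' deposited table, and Ifi44 was at least 184-fold lower. Ifi27 fell to a mean of 1918 in SCLC, against 6359 in Normal, and Ifi35 did not pass (0.29 ± 0.39, adjusted p = 0.547, per the authors' deposited table).

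Igtp and Irgm1, immunity-related GTPases that act on pathogen vacuoles, fell by 2.32 ± 0.69 (adjusted p = 0.00211) and 3.68 ± 0.47 (adjusted p = 2.67e-14) on the log2 scale per the authors' deposited table. Ifit1, Mx2, Rsad2 and Iigp1 were the members with a fold change but no p-value. The table has 134 such genes among 33654 with a fold change, and in tables of this form the pattern marks a count in a single library that lies far from the others. Beside these results stand the fall of the macrophage and fibroblast markers and of the lung epithelium markers in SCLC.

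**Figure D3:**
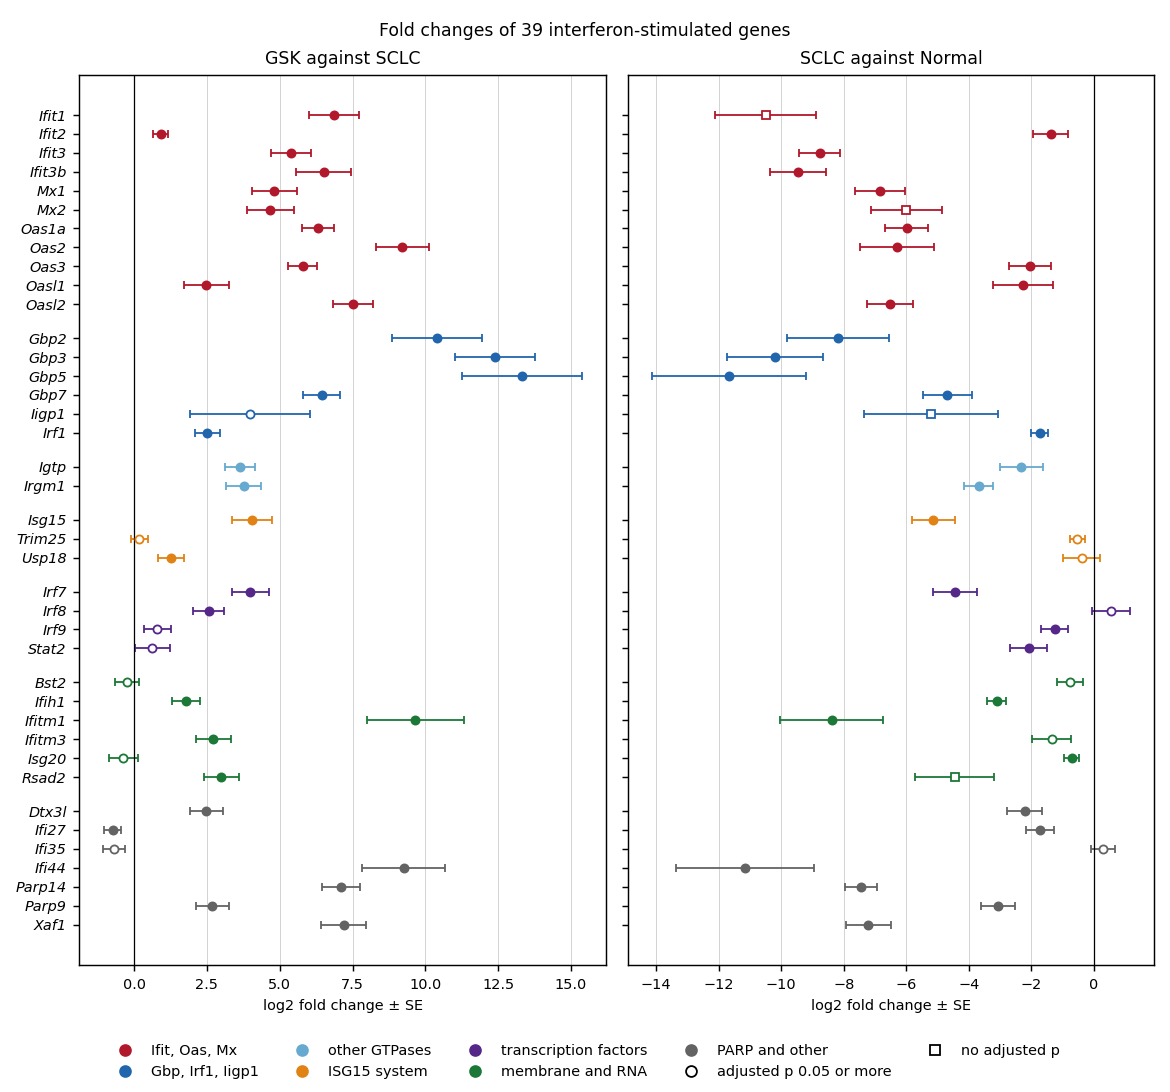
Log2 fold changes with the authors' standard errors for GSK against SCLC (left) and SCLC against Normal (right). Filled circles have an adjusted p under 0.05, open circles 0.05 or more, and open squares have none. Gbp5, Gbp3 and Ifi44 have long bars and SCLC means under 1, and their fitted values are not bounds. Iigp1, Ifitm1 and Gbp2 also have long bars, at SCLC means of 42.7, 2.32 and 1.65 in the comparison with Normal. On the left 31 filled points lie above 0 and 1, Ifi27, below it; on the right 29 filled points lie below 0.

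GSK libraries held more of most interferon-stimulated transcripts than SCLC libraries. All 39 members had an adjusted p for GSK versus SCLC per the authors' deposited table, of which 31 rose and 1 fell. Over all 28376 genes tested, 21.6% rose and 15.5% fell. The members' median log2 fold change was 3.98, against 0.24 over all genes tested, and their means summed to 41192 normalized counts in GSK and 13071 in SCLC. Genes with a mean of at least 100 had a median log2 fold change of -0.25, and the summed counts of GSK were lower than those of SCLC (31919648 in GSK and 45333553 in SCLC). With fold changes scaled to summed counts, 30.8% of all genes rose and 6.94% fell, 33 members rose and 0 fell. Under a null of an absolute log2 fold change up to 1, 26 members and 11.1% of all genes rose. These rises stood beside the rises of leukocyte, endothelial, stromal and blood markers in the same libraries.

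All 11 Ifit, Oas and Mx genes rose in GSK, with a median log2 fold change of 5.79. Oas3 had a mean of 999 in GSK and 18.1 in SCLC, and its rise of 5.79 ± 0.49 had the lowest adjusted p of the members (1.94e-30) per the authors' deposited table. Oas1a had means of 531 in GSK and 6.63 in SCLC (6.32 ± 0.55, adjusted p = 8.31e-29), and Oasl2 of 1238 in GSK and 6.76 in SCLC (7.52 ± 0.69, adjusted p = 1.57e-25), per the authors' deposited table. Oas2 had means of 535 in GSK and 0.907 in SCLC (9.20 ± 0.91, adjusted p = 5.83e-22, per the authors' deposited table). Oasl1 rose by 2.48 ± 0.77 (adjusted p = 0.00486) per the authors' deposited table. Ifit1 had a mean of 144 in GSK and 1.23 in SCLC (6.86 ± 0.86, adjusted p = 4.35e-14, per the authors' deposited table). Ifit3 had a mean of 259 in GSK and 6.23 in SCLC (5.38 ± 0.69, adjusted p = 1.37e-13, per the authors' deposited table), and Ifit3b was at least 88.2-fold higher in GSK. Ifit2 had the smallest rise of the group, with means of 692 in GSK and 368 in SCLC (0.91 ± 0.25, adjusted p = 0.00116, per the authors' deposited table). Mx1 rose by 4.82 ± 0.78 (adjusted p = 9.25e-09) and Mx2 by 4.68 ± 0.79 (adjusted p = 4.85e-08) per the authors' deposited table.

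Of the 6 Gbp, Irf1 and Iigp1 genes, 5 rose in GSK, with a median log2 fold change of 8.43 over all 6 (8.12 with genes under the floor at their bound). Gbp3 was at least 916-fold and Gbp5 at least 890.3-fold higher in GSK. Gbp2 reached a mean of 2422 in GSK, against 1.78 in SCLC (10.41 ± 1.55, adjusted p = 3.1e-10, per the authors' deposited table). Gbp7 had means of 1004 in GSK and 11.6 in SCLC (6.44 ± 0.64, adjusted p = 3.43e-22), and Irf1 of 3797 in GSK and 666 in SCLC (2.51 ± 0.43, adjusted p = 6.33e-08), per the authors' deposited table. Iigp1 had means of 719 in GSK and 45.7 in SCLC and did not pass (3.98 ± 2.05, adjusted p = 0.118, per the authors' deposited table), with the 2nd largest standard error of the members after Gbp5. Whether this set rose by more than the Ifit, Oas and Mx genes was not tested.

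Igtp rose by 3.65 ± 0.51 (adjusted p = 1.89e-11) and Irgm1 by 3.76 ± 0.59 (adjusted p = 2.95e-09) per the authors' deposited table. Isg15 had means of 315 in GSK and 19.0 in SCLC (4.05 ± 0.69, adjusted p = 4.48e-08), and Usp18 of 1232 in GSK and 510 in SCLC (1.27 ± 0.46, adjusted p = 0.0181), per the authors' deposited table, while Trim25 did not pass (0.18 ± 0.28, adjusted p = 0.655). Among the factors, Irf7 (adjusted p = 3.98e-09) and Irf8 (2.56 ± 0.54, adjusted p = 1.84e-05) rose per the authors' deposited table. Irf7 had means of 688 in GSK and 43.1 in SCLC. Irf8 reached a mean of 1585 in GSK, against 269 in SCLC. Stat2 (0.63 ± 0.61, adjusted p = 0.447) and Irf9 (0.80 ± 0.48, adjusted p = 0.183) did not pass per the authors' deposited table, although Irf9 did when scaled to summed counts (adjusted p = 0.0189), as did Trim25 (adjusted p = 0.0379).

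Ifitm1 reached a mean of 2077 in GSK, against 2.57 in SCLC (9.66 ± 1.66, adjusted p = 7.61e-08), and Ifitm3 of 3685 in GSK, against 557 in SCLC (2.72 ± 0.61, adjusted p = 5.62e-05), per the authors' deposited table. Rsad2 (2.99 ± 0.60, adjusted p = 5.71e-06) and Ifih1 (1.79 ± 0.49, adjusted p = 0.00109) rose per the authors' deposited table. Bst2 had means of 1265 in GSK and 1495 in SCLC, and Isg20 of 259 in GSK and 333 in SCLC, and neither passed (adjusted p = 0.693 and 0.614, per the authors' deposited table). Parp14 rose by 7.11 ± 0.65 (adjusted p = 4.29e-26), Xaf1 by 7.19 ± 0.77 (adjusted p = 8.28e-19), Parp9 by 2.69 ± 0.57 and Dtx3l by 2.48 ± 0.57 per the authors' deposited table, and Ifi44 was at least 54.2-fold higher in GSK. Ifi27 was the member that fell, with means of 1241 in GSK and 2060 in SCLC (-0.73 ± 0.30, adjusted p = 0.0409, per the authors' deposited table). That call ended when fold changes were scaled to summed counts (-0.23, adjusted p = 0.591). Ifi35 did not pass (-0.69 ± 0.36, adjusted p = 0.127, per the authors' deposited table). The members without a rise in GSK, which were Trim25, Irf9, Stat2, Bst2, Isg20, Ifi35, Ifi27 and Iigp1, had SCLC means between 45.7 and 3786. Some members that rose lay in the same range, such as Irf1 at 666 and Ifih1 at 159, and others below it, such as Ifit3 at 6.23.

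**Figure D4:**
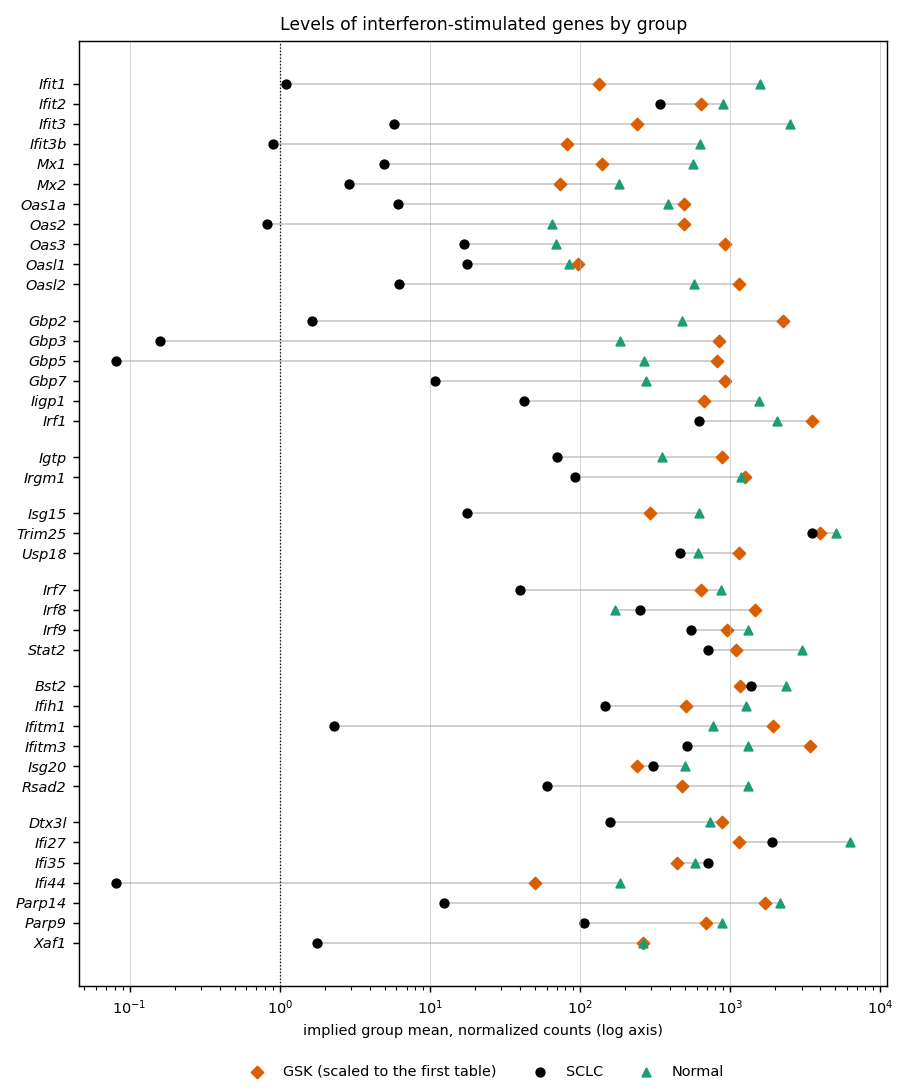
Implied group means of the 39 members in normalized counts on a log axis, for GSK (orange diamonds, put on the scale of the first table), SCLC (black circles) and Normal (green triangles), with a dotted line at the floor of 1. SCLC is the lowest group for most members, and Ifi44, Gbp5, Gbp3, Oas2 and Ifit3b lie under the floor in SCLC.

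The SCLC group occurs in both tables, which allowed GSK levels to be put on the scale of the first table and set beside Normal. The tables were normalized separately, so these levels carry no test. GSK lay above Normal for 17 of 39 members and below it for 22. The share of all genes above Normal was not computed, so counts of this kind cannot be set against it. Oas3 stood at 1334% of Normal, Oas2 at 763%, Oasl2 at 200.3%, Oas1a at 127% and Oasl1 at 115%. Ifit1, Ifit3 and Ifit3b, by contrast, stood at 8.36%, 9.60% and 12.8% of Normal, Mx1 at 24.8%, Mx2 at 40.0% and Ifit2 at 71.8%. The Ifit, Oas and Mx genes, which all rose against SCLC, thus lay on both sides of the Normal level. Ifit1, Mx2, Rsad2 and Iigp1 had no p-value in SCLC against Normal but had one in GSK against SCLC, so their Normal means may rest on a single library, and their percentages with them.

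Gbp2 and Gbp3 stood at 468% and 456% of Normal, Gbp7 at 336%, Gbp5 at 309% and Irf1 at 171%, and Iigp1, whose Normal mean has that limit, at 42.4%. Irf8 stood at 858% of Normal, Ifitm3 at 258%, Igtp at 251%, Ifitm1 at 249% and Usp18 at 186%. Ifi27, at 18.1%, and Ifi44, at 27.2%, were far below Normal. With GSK and Normal at equal summed counts, 25 of 39 members lay above Normal. Trim25, Irf7, Irf9, Ifit2, Ifi35, Xaf1, Parp9 and Parp14 then changed sides. On their earlier sides of Normal were the Oas genes, between 174% and 2016%, the Gbp genes and Irf1, between 259% and 707%, and Ifit1, Ifit3 and Ifit3b, between 12.6% and 19.4%. Beside these levels, the 9 macrophage markers other than Lyz2, with the pan-leukocyte gene Ptprc among them, summed to 530% of Normal in GSK. The T and NK cell markers summed to 2447 normalized counts in GSK against 0.826 in Normal.

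**Figure D5:**
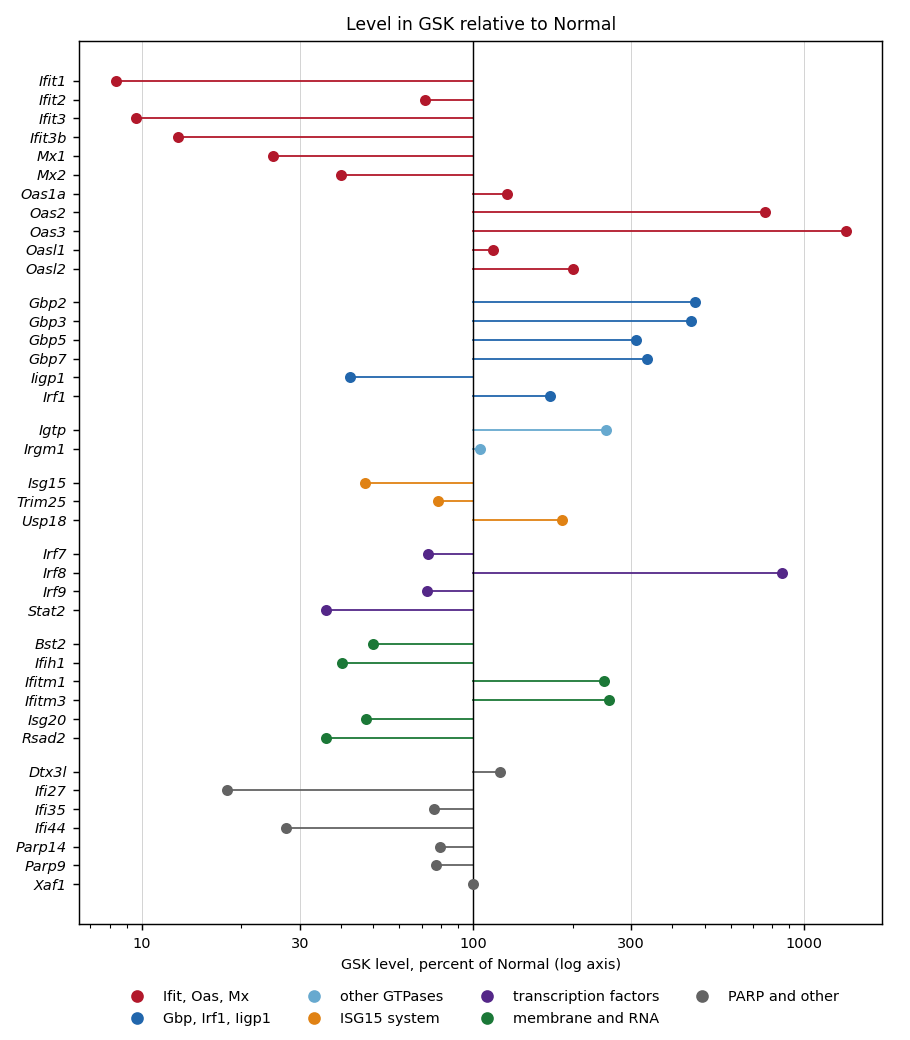
Level of each member in GSK as a percent of its level in Normal, on a log axis, with GSK means put on the scale of the first table and the vertical line at 100%. Oas and Gbp genes lie right of the line, up to 1334% for Oas3, and Ifit1, Ifit3, Ifit3b and the Mx genes left of it, down to 8.36% for Ifit1, whose Normal mean may rest on a single library.

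Per kilobase of exon, which allows levels of different genes to be compared, the most abundant members in GSK were Ifitm3, Ifitm1, Bst2, Gbp2 and Irf1, in that order. In SCLC they were Bst2, Ifi27, Ifitm3, Trim25 and Ifi35, and in Normal Ifi27, Bst2, Ifitm3, Ifit3 and Trim25. Gbp2 ranked 4th of the 39 members in GSK, 32nd in SCLC and 23rd in Normal. Ifit3 ranked 25th in GSK, 23rd in SCLC and 4th in Normal. Exon lengths came from GENCODE M21, which may differ from the annotation the authors counted on.

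The other genes of the pathway were read from lists. Of 12 interferon genes, 3 had an adjusted p in GSK against SCLC. Ifng, which encodes interferon gamma, was at least 114-fold higher in GSK, and Ifnab, an alpha interferon gene, at least 5.96-fold (adjusted p = 0.0245), per the authors' deposited table. Ifna1, Ifna4, Ifna5, Ifne, Ifnl2 and Ifnl3 were listed with a mean of 0 in both tables, and Ifnb1 with 0 in the table of GSK against SCLC. Ifng had a mean of 0 in the table of SCLC and Normal. There only Ifnz had an adjusted p, and it did not pass (1.36 ± 1.47, adjusted p = 0.456, per the authors' deposited table). T and NK cells are the main known makers of interferon gamma. Their markers and those of macrophages, B cells, endothelium, fibroblasts and erythroid cells rose in the same libraries as Ifng. Which cells held the Ifng transcripts was not tested.

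Of 6 interferon receptor genes, 3 rose in GSK and 5 fell in SCLC, beside 21.6% and 25.1% of all genes tested. Ifngr1, the ligand-binding chain for interferon gamma, rose by 2.34 ± 0.47 in GSK (adjusted p = 5.65e-06), and Ifnar2, of the type I receptor, by 1.42 ± 0.43, per the authors' deposited table. Il10rb, a chain shared with interleukin receptors, rose by 3.87 ± 0.68 per the authors' deposited table. Ifnlr1, the epithelial receptor for interferon lambda, fell by 7.17 ± 0.60 on the log2 scale in SCLC (adjusted p = 7.24e-32) per the authors' deposited table, from which a mean of 1440.2 in Normal follows. The other receptor chains that fell in SCLC were Il10rb (-3.33 ± 0.69), Ifngr2 (-1.96 ± 0.36), Ifngr1 (-1.51 ± 0.41) and Ifnar2 (-1.33 ± 0.33), per the authors' deposited table. The mean of Ifnlr1 was 42.4 in GSK, against 10.8 in SCLC, and did not pass (1.97 ± 0.86, adjusted p = 0.0593, per the authors' deposited table).

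Of 11 kinases, transcription factors, inhibitors and regulators downstream, 5 rose and 0 fell in GSK, and 0 rose and 7 fell in SCLC. The shares of all genes tested were 21.6% higher and 15.5% lower in GSK, and 25.3% higher and 25.1% lower in SCLC. Jak2 (2.21 ± 0.37) and Jak1 (1.88 ± 0.45), the receptor kinases, rose in GSK per the authors' deposited table, as did the feedback inhibitor genes Socs1 (2.44 ± 0.62) and Socs3 (1.30 ± 0.50, adjusted p = 0.0291). Ptpn6, a phosphatase of blood cells, had the largest rise in GSK (6.65 ± 0.63) and fell by 5.61 ± 0.51 on the log2 scale in SCLC, per the authors' deposited tables. Jak2, Jak1 and Pias1 fell by 2.06 ± 0.33, 1.82 ± 0.36 and 1.54 ± 0.27 in SCLC, per the authors' deposited table.

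Of 33 further interferon-stimulated genes outside the 39, 21 rose and 0 fell in GSK, and 1 rose and 25 fell in SCLC, per the authors' deposited tables. For this list and the next, 21.6% of all genes tested rose in GSK and 25.1% fell in SCLC. Daxx was the gene that rose in SCLC (0.66 ± 0.27, adjusted p = 0.0322, per the authors' deposited table). Trim30a, Ifi203 and Ifi204 were at least 1202-fold, 988-fold and 960.4-fold higher in GSK, and at least 305-fold, 133-fold and 173-fold lower in SCLC. Sp100, of nuclear bodies, rose by 10.10 ± 0.73 in GSK (adjusted p = 2.66e-40) per the authors' deposited table. All 11 further guanylate-binding and immunity-related GTPase genes rose in GSK, and all 9 with an adjusted p fell in SCLC. Gbp9, at least 1505-fold, and Gbp8, at least 367-fold, were higher in GSK, and Gvin1 (11.44 ± 1.52) and Gbp4 (10.38 ± 1.92) rose per the authors' deposited table.

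The median standard error of the members was above that of all genes, without matching on level. Among genes with both group means of at least 50, the median SE in GSK against SCLC was 0.49 for 18 members and 0.32 for all 12824 genes, and 15 of 18 members lay above the median of all genes. In SCLC against Normal the medians were 0.50 for 18 members and 0.29 for 11705 genes, again with 15 of 18 above. Stat2 had an SE of 0.61 in GSK against SCLC and 0.59 in SCLC against Normal at group means of 717 or more. Which libraries differed was not analysed here.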

How the data were processed

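Per the submitters' processing notes, alignment used STAR 2.7.9a and build GRCm39. Which counting tool and annotation followed is not given in the sources used here. The authors' deposited tables, one per comparison, carry, per the file headers, columns named as in DESeq2 output. Their signal column, as deposited, is the mean normalized count over the 6 libraries of a comparison. The log2 fold change and its SE are the authors' fitted values. The score column, deposited by the authors, is the fold change divided by its SE, to within 8.87e-08. The authors' p-value and adjusted p-value matched a Benjamini-Hochberg adjustment to within 0.0035 on a log10 scale. Values of single libraries were not in the columns, so depth per library, replicate spread and exact tests were not analysed here; normalized counts per library summed on average to 31919648 in GSK and 45333553 in SCLC in one table, and to 42007045 in SCLC and 44706821 in Normal in the other.

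A gene was called at the authors' adjusted p under 0.05. The mean of each group was solved from the mean and the fold change, taking 3 libraries on either side. The control of the second table was taken as SCLC: over 13634 genes with means of at least 50 its implied mean matched the SCLC mean of the first table with a log2 SD of 0.0084 (median 0.109, the factor used to put GSK on the scale of the first table), against 2.02 for the other arm. Where a group lay under a mean of 1 (3 counts), folds were computed against that floor. The bound takes the other mean without its error, and covers counting error only. Ifit3b and Oas2 had SCLC means so close to the floor that it gives no bound. Their means and fitted fold changes are given instead. The code for recomputed p-values was run on fold changes simulated from the authors' SE. Such a run checks the code and cannot show whether those SE suit the data. Members and lists were chosen with earlier results of these data known. All members are named, and up to 4 of each further list, those that changed most or all where 5 or fewer did; genes of marker lists beyond that were named to describe the lists. Some genes of the further lists are not reported here. Alternatives were another threshold, filters, 2 scalings and a null of an absolute log2 fold change up to 1. Python 3.11.15, pandas 2.3.3 and scipy 1.17.1 were used.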

Additional observations from a re-analysis of the deposited data

How the results depend on the processing

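No paired analysis was possible because the tables held no value of a single library, and leaving out libraries or fitting with another tool was not run for the same reason. Over the 6 alternatives, members that rose in GSK numbered 26 to 33 (31 as reported) and members that fell in SCLC 20 to 32 (29 as reported), with both low ends under a null of an absolute log2 fold change up to 1. Of all genes tested, 11.1% to 30.8% rose in GSK (21.6% as reported) and 13.7% to 30.9% fell in SCLC (25.1% as reported). No call changed direction. The single fall in GSK, that of Ifi27, was lost (0 members lower) at an adjusted p under 0.01, without the filter on low values, under both scalings and under that null. Of the Ifit, Oas and Mx genes, 9 to 11 rose in GSK and 6 to 9 fell in SCLC. With a mean of at least 50, only 9 of them were tested in GSK and 7 in SCLC, and all passed. Of the Gbp, Irf1 and Iigp1 genes, 5 of 6 tested rose in GSK and 5 of 5 tested fell in SCLC in every alternative. GSK levels above Normal numbered 17, 5 and 5 for all members and these families, and 25, 6 and 5 at equal summed counts, a setting chosen after seeing the data. For these counts no share over all genes was computed. Levels under a mean of 1 limit the size of the changes of Ifit3b, Oas2, Gbp3, Gbp5 and Ifi44.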
